A study of Mus musculus with 12 samples.

Results

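The 9 genes described here encode enzymes that make or break down heme: Alas1, Alad, Uros, Urod, Cpox, Ppox and Fech on the side of synthesis, and Hmox1 and Blvrb on the side of breakdown. They were picked by symbol from the 36144 genes of a deposited expression table. All 9 passed the filter on low values that left 11544 genes for testing. RNA came from primary hepatocytes, the main cells of the liver, which were isolated with collagenase from a wild-type C57/Bl6J mouse and held overnight in serum-free medium for 16 h. There were 4 groups of 3 libraries. Mock cells received no further agent. FD cells received forskolin, which raises cAMP, at 10 µM with dexamethasone, a synthetic glucocorticoid, at 1 µM for 5 h before lysis, a mixture used to imitate the hormones of fasting. FDI cells received the same mixture after 1 h with 100 nM insulin, and FDMn cells received it after the 16 h with 6 µM manganese chloride. The labels speak of a single mouse and do not say that replicates are separate preparations, so the p-values cover only the spread among these libraries, and that spread may be technical. Manganese and insulin were each given only together with forskolin and dexamethasone.

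Heme is built from glycine and succinyl-CoA by a chain of enzymes that begins in mitochondria, runs through the cytosol and ends in mitochondria, where ferrochelatase inserts iron into the finished ring. In liver the entry step, carried out by ALAS1, sets the rate, is induced in fasting through the coactivator PGC-1α, and is held down by heme itself, while cytochromes P450 take up much of the product. Heme oxygenase opens the ring and releases iron, carbon monoxide and biliverdin, and its inducible form, Hmox1, is repressed by BACH1 and activated by NRF2 when heme, metals or oxidants rise.

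Short stretches of the gene starts are shown because Alas1 rose several-fold while other synthesis genes that hold the same letters did not. RefSeq start windows (250 bases before to 50 after each start, GRCm38.p6) were found for 7 of the 9 genes, 11 windows in all, and none was found for Hmox1 and Fech. The windows were searched on both strands for the cAMP response element (TGACGTCA) and its shorter core (TGACG), the NRF1 core (GCGCATGCG), a FOXO core (GTAAACA) and the core of the antioxidant response element (TGACNNNGC). The short core TGACG lies within the full cAMP response element, and the NRF1 core overlaps its own match on the opposite strand. Each stretch below is written 5′ to 3′ on the strand of its gene, with capitals for the match, or for its reverse complement where the match is on the opposite strand. Of the overlapping pair of NRF1 matches in Alas1, capitals mark the one on the strand of the gene.
Alas1, NRF1 core, chr9:106247907-106247935, minus strand: cgcacccaagGCGCATGCGcggcggtcac
Alas1, TGACG, chr9:106248126-106248150, minus strand: cgcaggagtcTGACGcatagggctg
Alad, TGACG, chr4:62520220-62520244, minus strand: gagaatagacCGTCAagtgaactct
Uros, TGACG, chr7:133709500-133709524, minus strand: tccacgatttCGTCAacttcatcct
Uros, TGACG, chr7:133709479-133709503, minus strand: tcctcttcttCGTCActgtcgtcct
Cpox, TGACG, chr16:58670030-58670054, plus strand: gcccgtttgtCGTCAgccttctaac
Ppox, TGACG, chr1:171281294-171281318, minus strand: cctctggtagCGTCActgccaatat

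The short core TGACG was present in 5 of the 11 windows, 1 each of Alas1, Alad, Cpox, Ppox and Uros, and in 20.8% of all 32851 windows. The NRF1 core was present in Alas1 alone among the 7 genes with a window, and in 1.75% of all windows. No member window held the full cAMP response element, the FOXO core or the antioxidant core, which were present in 1.79%, 3.65% and 12.4% of all windows. Of the 5 genes with a TGACG stretch, Alas1 rose in FD against Mock, Cpox and Alad fell, and Uros and Ppox passed no test. In GENCODE M21 both Alas1 stretches lie within the span of the Alas1 gene. A match describes letters only, and an absent match says only that the letters are not in that window.

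The unit throughout is TPM, transcript abundance per length of transcript scaled to the same total in each library, so that levels of different genes can be compared. The number of reads behind a TPM value is unknown, so no counting interval is given. Between 10900 and 11161 genes per library reached 1 TPM. Alb, the albumin gene that marks hepatocytes, lay between 22527 and 32589 TPM. The red cell marker Slc4a1 was listed at 0 in all 12, and no hemoglobin gene exceeded 2.51 TPM. The 11 Kupffer cell markers, from the liver macrophages that also express Hmox1, summed to between 3.94 and 8.29 TPM. FD replicate 3 stood apart from FD replicates 1 and 2 on the second principal component (scores of 7.98 against 22.3 and 29), so the main results on FD are also given without it.

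**Figure D1:**
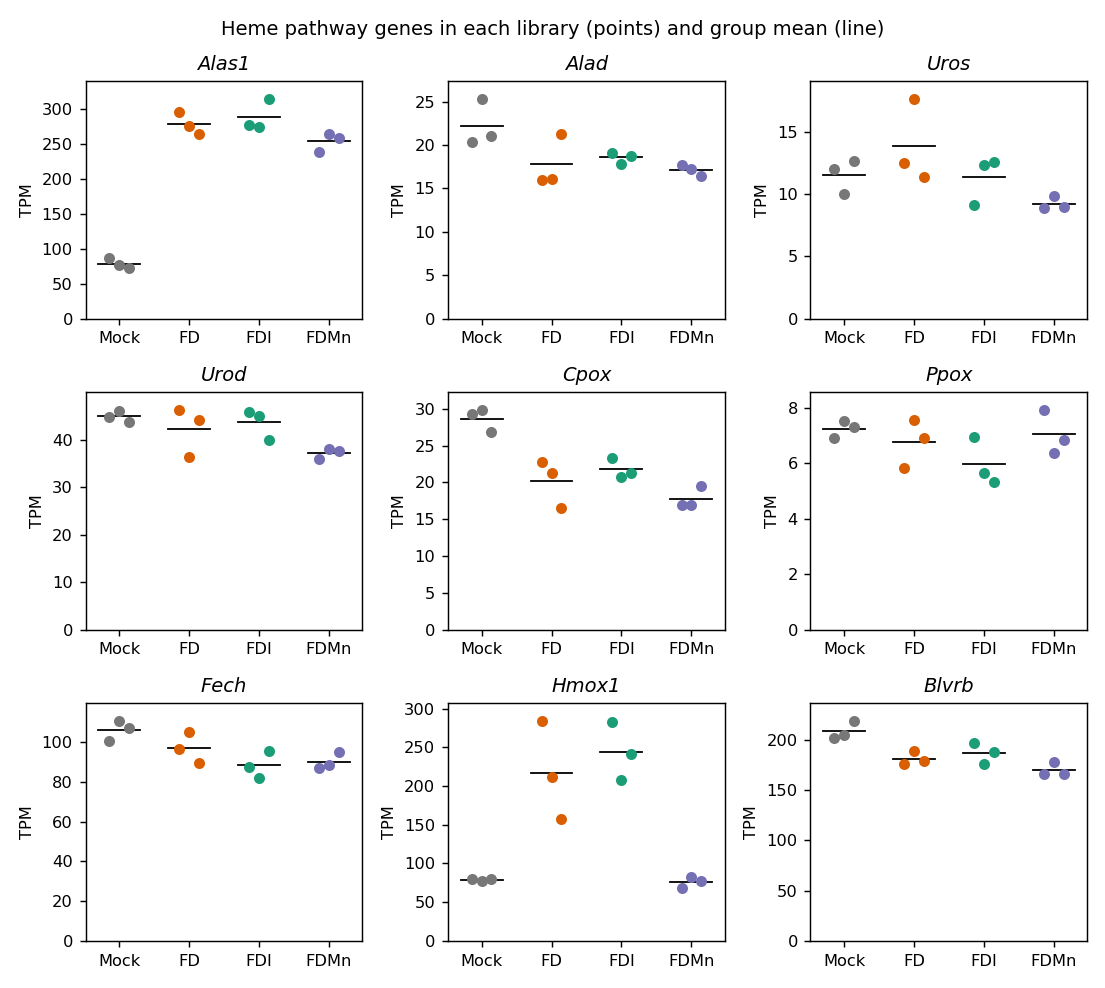
Each panel plots 1 gene, with TPM on the vertical axis (from 0) and the 4 groups on the horizontal axis. Points are the 3 libraries of a group and the line is their mean. Alas1 sits between 239 and 315 TPM in every treated library against 72.7 to 86.3 in Mock. Hmox1 is high in FD and FDI and lies between 67.7 and 82.2 TPM in FDMn.

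Alas1 and Hmox1 were the members that moved most, and they did so in different patterns. Both rose with forskolin and dexamethasone, by 3.55-fold and 2.76-fold, and neither call was lost under any of the 15 alternative settings. With manganese, Hmox1 was near the level of Mock cells and Alas1 was not. With insulin, neither passed the test against FD. The other 7 members varied by no more than 1.99-fold between their lowest and highest library.

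Alas1 encodes the 5-aminolevulinate synthase of liver and most other tissues, the entry enzyme of the pathway (chr9:106233455-106248654, minus strand, GRCm38). It read 86.3, 76.3 and 72.7 TPM in Mock, 296, 276 and 264 in FD, 277, 275 and 315 in FDI, and 239, 265 and 258 in FDMn. The lowest treated library therefore lay well above the highest Mock library, and FD overlapped with both FDI and FDMn. The log2 difference between FD and Mock was 1.82 ± 0.08 (SE, n = 3 per group; adjusted p = 3.92e-09), and it was 1.86 without FD replicate 3. Against Mock, Alas1 was also 3.69-fold higher in FDI (adjusted p = 2.96e-09) and 3.24-fold higher in FDMn (adjusted p = 7.22e-09). Between FDMn and FD the log2 difference was -0.13 with a 95% interval from -0.30 to 0.04 (adjusted p = 0.29). Between FDI and FD it was 0.05, with an interval from -0.12 to 0.22 (adjusted p = 0.709). The span of an antisense gene, 4930500F10Rik, overlaps that of Alas1 over 695 bases. Overlap of exons was not examined and the use of strand in counting is not given, so whether the 2 genes share reads is not known.

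No synthesis gene after Alas1 was called higher than Mock in any treated group. Cpox encodes coproporphyrinogen oxidase, which returns the pathway to the mitochondrion (chr16:58670292-58717636, plus strand). It read 29.2, 29.9 and 26.8 TPM in Mock, 22.8, 21.3 and 16.6 in FD, 23.3, 20.7 and 21.3 in FDI, and 16.9, 16.97 and 19.5 in FDMn. All 9 treated libraries were below all 3 Mock libraries. The log2 difference was -0.49 ± 0.11 in FD (adjusted p = 0.00355) and -0.66 in FDMn (adjusted p = 0.000479), and both calls held under every alternative run. In FDI it was -0.38 (adjusted p = 0.0169), a call lost under 4 of 15 alternatives: after median-of-ratios scaling (adjusted p = 0.0752) and without Mock replicate 2 (0.0541), FDI replicate 2 (0.0596) or FDI replicate 3 (0.0507). The treated groups did not pass the test against each other. Without FD replicate 3, FDMn was lower than FD as well (log2 difference -0.30, adjusted p = 0.0481). The end of Cpox overlaps 204 bases of Gpr15 on the opposite strand.

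Alad encodes the dehydratase that joins aminolevulinate molecules into porphobilinogen (chr4:62509169-62519918, minus strand). It read 20.3, 25.3 and 21 TPM in Mock, 15.95, 16.05 and 21.3 in FD, 19.1, 17.9 and 18.8 in FDI, and 17.7, 17.3 and 16.4 in FDMn. FD overlapped with Mock through FD replicate 3, and FDI and FDMn lay below Mock. The log2 difference from Mock was -0.31 in FD (adjusted p = 0.0434), -0.24 in FDI (adjusted p = 0.117) and -0.35 in FDMn (adjusted p = 0.0253). The FD call was lost under 10 of 15 alternatives, among them the omission of Mock replicate 2 (adjusted p = 0.166), Mock replicate 3 (0.0581), FD replicate 1 (0.143) or FD replicate 2 (0.136). The FDMn call was lost under 6, among them the omission of Mock replicate 2 (adjusted p = 0.104), FDMn replicate 2 (0.0577) or FDMn replicate 3 (0.0782), and after median-of-ratios scaling (0.191).

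Uros and Urod encode the synthase and the decarboxylase that close and trim the porphyrin ring in the cytosol. Uros (chr7:133686243-133710072, minus strand) read 12, 9.99 and 12.6 TPM in Mock, 12.5, 17.6 and 11.4 in FD, 9.08, 12.4 and 12.6 in FDI, and 8.87, 9.86 and 8.92 in FDMn. It was lower in FDMn than in FD by 0.52 on the log2 scale (adjusted p = 0.0488), with no overlap. The call turned on FD replicate 2, the highest library: without it the log2 difference was -0.34 (adjusted p = 0.155), and 9 of 15 alternatives lost it, among them the omission of FD replicate 1 (adjusted p = 0.0693) or of FDMn replicate 1 (0.131), 2 (0.0826) or 3 (0.122). Uros shares 740 bases with Bccip on the opposite strand. Urod (chr4:116989965-116994413, minus strand) read 44.8, 46.1 and 43.8 TPM in Mock, 46.3, 36.4 and 44.0 in FD, 45.9, 44.9 and 40.0 in FDI, and 35.9, 38 and 37.7 in FDMn. FDMn was below Mock by 17.1% (log2 difference -0.26, adjusted p = 0.0276), a call lost under 7 of 15 alternatives, including both scalings and the omission of any FDMn replicate or of Mock replicate 1 or 2 (adjusted p from 0.0523 to 0.0856). It was not called against FD (adjusted p = 0.212) unless FD replicate 2 was left out (log2 difference -0.27, adjusted p = 0.0351).

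Ppox and Fech encode protoporphyrinogen oxidase and ferrochelatase, the closing mitochondrial steps. Ppox (chr1:171275990-171281186, minus strand) was the least abundant member, between 5.31 and 7.92 TPM over the 12 libraries, and passed no test. Its log2 difference between FD and Mock was -0.09 with a lower bound of -0.36 (adjusted p = 0.583). B4galt3 on the opposite strand overlaps 907 bases of it. Fech (chr18:64452914-64490251, minus strand) read 100, 111 and 107 TPM in Mock, 96.5, 105 and 89.3 in FD, 87.2, 81.8 and 95.5 in FDI, and 87.1, 88.2 and 95 in FDMn. FDI and FDMn lay below all Mock libraries, and FD overlapped with Mock. Fech was 16.8% lower in FDI (adjusted p = 0.0163) and 14.98% lower in FDMn (adjusted p = 0.0276). After median-of-ratios scaling both calls were lost (adjusted p = 0.129 and 0.497), as they were without Mock replicate 2 (0.0582 and 0.0905). The FDI call was also lost without FDI replicate 2 (0.0719), and the FDMn call without Mock replicate 3 (0.0705) or FDMn replicate 1 (0.0881) or 2 (0.0809).

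With Alas1 the single synthesis gene called higher, the makeup of the synthesis transcripts differed between Mock and the treated groups. Alas1 held 26.2% ± 2.19 (SD, n = 3) of the summed TPM of the 7 synthesis genes in Mock, 58.5% ± 1.11 in FD, 60.4% ± 1.46 in FDI and 58.7% ± 1.18 in FDMn. The 6 later genes summed to 220 ± 8.07 TPM in Mock, 198 ± 7.54 in FD, 189 ± 5.42 in FDI and 179 ± 5.24 in FDMn, values given with no test. The ratio of Alas1, the entry enzyme, to Fech, the exit enzyme, was 0.743 ± 0.101 in Mock and 2.88 ± 0.229, 3.28 ± 0.0946 and 2.82 ± 0.162 in FD, FDI and FDMn.

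Hmox1 encodes the inducible heme oxygenase, which opens the heme ring (chr8:75093621-75100589, plus strand). It read 79.5, 77.3 and 79.9 TPM in Mock, 284, 211 and 157 in FD, 283, 208 and 242 in FDI, and 67.7, 82.2 and 76.8 in FDMn. FD and FDI lay above every Mock and FDMn library, whereas FDMn and Mock overlapped. The 3 FD libraries spread widely (217 TPM ± 63.8, SD), with FD replicate 3 the lowest. The log2 difference between FD and Mock was 1.41 ± 0.17 (SE; adjusted p = 4.14e-05) and was 1.62 without that library. FDMn was 65.2% lower than FD, a log2 difference of -1.48 ± 0.17 (adjusted p = 0.000184), and -1.69 without FD replicate 3. FDMn and Mock differed by -0.07 on the log2 scale, with a 95% interval from -0.44 to 0.31 (adjusted p = 0.787). FDI was 3.10-fold above Mock (adjusted p = 1.59e-05) and differed from FD by 0.20, with an interval from -0.18 to 0.57 (adjusted p = 0.495). FDMn was 69.1% below FDI (adjusted p = 5.72e-05).

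Markers of Kupffer cells were low beside these levels. The sum of the 11 genes lay between 3.94 and 5.53 TPM in Mock, between 4.72 and 5.89 in FD, between 5.47 and 7.20 in FDI, and between 7.08 and 8.29 in FDMn. The 4 cholangiocyte markers summed to between 33.4 and 39.9 TPM in Mock, 15.8 and 19.1 in FD, 37.3 and 48.7 in FDI, and 24.7 and 26.9 in FDMn. Nearly all of that was Sox9, which fell in FD against Mock from 34.9 to 17.03 TPM (adjusted p = 1.81e-05), while Krt7, Krt19 and Epcam were below the filter on low values. The 7 endothelial markers summed to between 20.3 and 21.7 TPM in Mock, 21.1 and 32.9 in FD, 22.1 and 27.8 in FDI, and 29.3 and 32.2 in FDMn. The part of these cells in the results was not tested. In bulk samples, fewer cells of a type and less RNA per cell cannot be told apart. The constitutive heme oxygenase, Hmox2, averaged 44.8 TPM in Mock, 43.4 in FD, 46.6 in FDI and 37.6 in FDMn. It was called lower in FDMn than in FDI (log2 difference -0.30, adjusted p = 0.011), a call lost after quantile normalization or without FDMn replicate 2. It was also called lower in FDMn than in Mock (log2 difference -0.25, adjusted p = 0.0135), a call lost under 4 of 15 alternatives, both scalings and the omission of FDMn replicate 2 or Mock replicate 2. It passed no test in FD against Mock, FDMn against FD or FDI against FD. The ratio of Hmox1 to Hmox2 was 1.77 ± 0.139 in Mock, 4.98 ± 1.28 in FD, 5.23 ± 0.693 in FDI and 2.02 ± 0.304 in FDMn. In FDMn cells the Alas1 transcript was near its level in FD and the Hmox1 transcript near its level in Mock. The ratio of Alas1 to Hmox1 was 0.994 ± 0.0876 in Mock, 1.34 ± 0.323 in FD, 1.202 ± 0.194 in FDI and 3.37 ± 0.146 in FDMn. The lowest FDMn library, at 3.23, exceeded the highest library of the other groups, at 1.68.

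Blvrb encodes biliverdin reductase B, a flavin reductase that acts on biliverdin isomers (chr7:27447978-27466144, plus strand). It was the most abundant member in Mock. It read 202, 205 and 219 TPM in Mock, 176, 189 and 179 in FD, 197, 177 and 188 in FDI, and 166, 178 and 167 in FDMn. All treated libraries lay below Mock, and the treated groups overlapped with each other. The fall was 12.9% in FD (adjusted p = 0.0157), 10.3% in FDI (adjusted p = 0.0485) and 18.3% in FDMn (adjusted p = 0.00159). After median-of-ratios scaling all 3 calls were lost (adjusted p = 0.624, 0.514 and 0.103). After quantile normalization the FDMn call was kept (adjusted p = 0.0136) and the others were not (adjusted p = 0.124 and 0.0902). The FD call was also lost without Mock replicate 3 (0.068) or FD replicate 1 (0.0538), and the FDI call under 11 of 15 alternatives, among them the omission of any Mock replicate (0.0561, 0.0744 and 0.17) or of FDI replicate 2 (0.178) or 3 (0.0937).

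**Figure D2:**
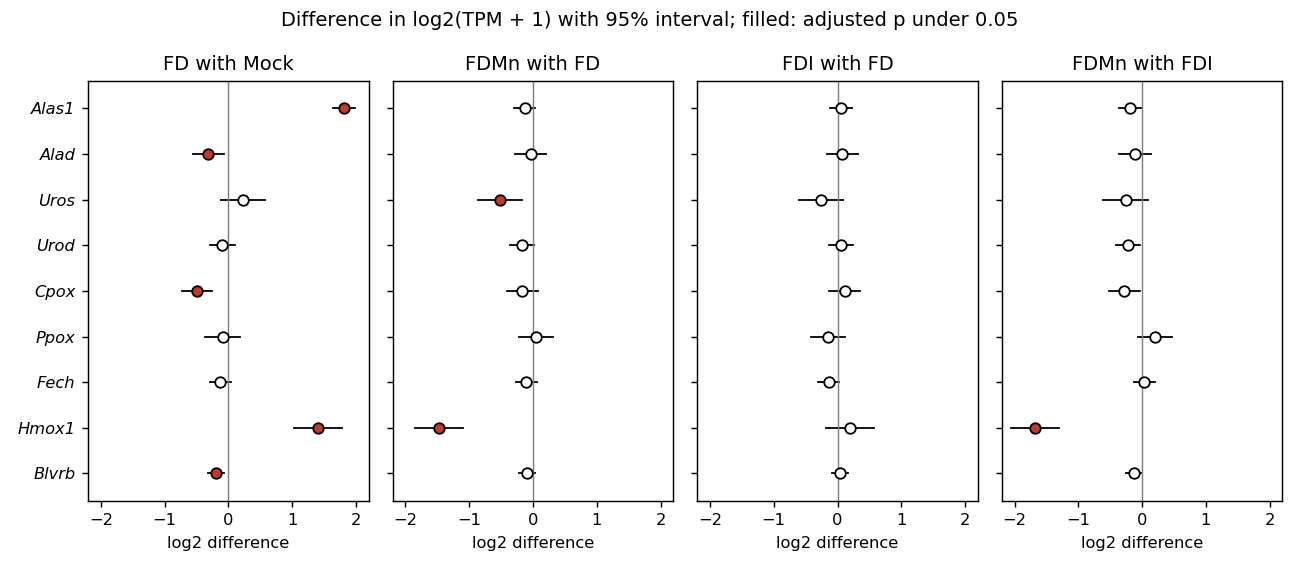
Points are differences in log2(TPM + 1) between the groups named above each panel (first minus second), for the genes on the vertical axis in pathway order, and bars are 95% intervals from limma. Filled points have an adjusted p under 0.05. Hmox1 is the member with a large shift in both panels that set FDMn against another treated group, whereas Alas1 is filled only in FD with Mock among these 4 panels.

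The order of the transcripts shifted with these changes. In Mock the sequence of mean levels was Blvrb, Fech, Hmox1, Alas1, Urod, Cpox, Alad, Uros and Ppox, with Hmox1 and Alas1 overlapping and not separable. In FD and FDI it opened with Alas1, Hmox1, Blvrb and Fech, where Hmox1 overlapped with Alas1 in both groups and with Blvrb in FD. In FDMn, Alas1 came before Blvrb, Fech and Hmox1, and these 4 did not overlap. From Urod to Ppox the order of the means was the same in all groups, but Cpox overlapped with Alad in FD and FDMn, and Alad with Uros in FD, so these neighbours were not separable there.

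Counted over all members, FD against Mock had 2 higher (Alas1 and Hmox1), 3 lower (Cpox, Alad and Blvrb) and 4 uncalled. Of all genes tested, 11.2% were called higher and 29.9% lower in that comparison. FDMn against FD had 0 higher and 2 lower (Hmox1 and Uros), where 7.22% of all genes were called higher and 7.9% lower. FDI against FD had 0 called by limma, and also 0 at an unadjusted p under 0.05, where 10.2% of all genes were called higher and 4.35% lower. FDMn against FDI had 0 higher and 1 lower, Hmox1, against 5.68% and 11.9% of all genes, while 5 members had an unadjusted p under 0.05. The share of members called lower in FD was near that over all genes, so it is not a result about the members. Without FD replicate 1 or without Mock replicate 3, FD against Mock had 3 members called, and without FD replicate 1 or any 1 FDMn replicate, FDMn against FD had 1, Hmox1.

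Against Mock, FDMn had 1 member higher and 5 lower, where 12% of all genes were called higher and 30.6% lower. FDI had 2 higher and 3 lower, where 12.9% of all genes were called higher and 25.4% lower. The lower calls need to be read against the scale. The median gene was at -0.15 (log2) in FD against Mock and at -0.01 after median-of-ratios scaling, and the share of lower genes among all calls went from 72.7% to 49.9%, or 55% after quantile normalization. In FDMn against Mock that share went from 71.8% to 49% or 54%, and in FDI against Mock from 66.3% to 49.6% or 55.2%. In FDI against FD it went from 30% to 46.2% or 46.5%, and in FDMn against FDI from 67.7% to 53% or 51.6%. Of the lower calls among the members against Mock, those of Cpox in FD and FDMn were the ones kept under both scalings. The calls of Alas1 and Hmox1 were kept under both.

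The helpers of heme synthesis were followed as a list of 14 tested genes: the red cell form of the entry enzyme and mitochondrial carriers, transporters and partners. In FD against Mock 1 rose, 3 fell and 10 were uncalled, with a median log2 difference of -0.11 against -0.15 over all genes. The balance depended on the scale: 3 were higher and 1 lower after median-of-ratios scaling, and 2 and 1 after quantile normalization. Clpx, a mitochondrial unfoldase that acts on ALAS protein, was the one that rose on the TPM scale, from 18.9 ± 2.59 to 43.1 ± 3.75 TPM (2.28-fold, adjusted p = 2.45e-06). It was lower than in FD in both FDMn, at 33.4 ± 1.79 TPM (adjusted p = 0.0342), and FDI, at 33.2 ± 2.29 (adjusted p = 0.032), but each of these calls was lost under 6 of 15 alternatives, among them the omission of FD replicate 1 or 2. Slc25a37, mitoferrin 1, which brings iron into mitochondria, fell from 39.1 ± 2.85 to 9.98 ± 0.857 TPM (adjusted p = 4.05e-08). It was higher than in FD in FDMn, at 21.1 ± 2.19 TPM (adjusted p = 7.75e-05), and in FDI, at 17.8 ± 2.02 (adjusted p = 0.000478).

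In FDMn against FD the helpers had 1 higher and 3 lower, where 7.22% of all genes were called higher and 7.9% lower. The lower ones were Clpx, Abcb6, a porphyrin transporter (from 19.95 ± 0.855 to 13.97 ± 0.713 TPM, adjusted p = 0.00316), and Pgrmc1, a heme-binding membrane protein and partner of ferrochelatase (from 587 ± 12.1 to 491 ± 17.7 TPM, adjusted p = 0.0031). In FDI against FD 3 were higher and 2 lower, where 10.2% of all genes were called higher and 4.35% lower. After either scaling 2 were higher and 3 lower. Alas2, the form of the entry enzyme made in red cell precursors, lay between 8.56 and 12.3 TPM in all libraries. The span of Apex2 on the opposite strand overlaps its whole length of 23264 bases. Overlap of exons was not examined, so whether all these reads belong to Alas2 is not known.

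**Figure D3:**
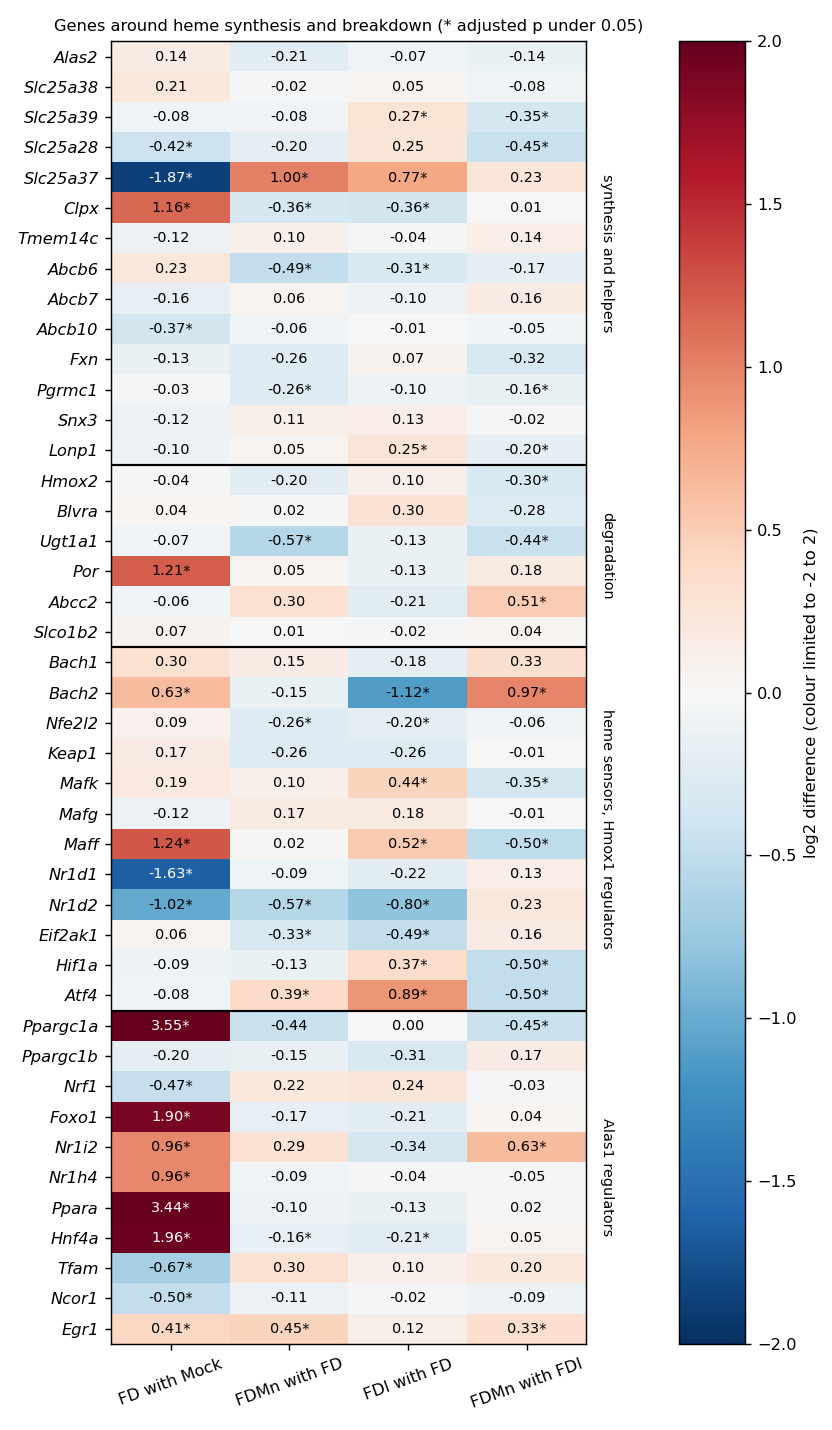
Rows are all tested genes of 4 lists (other synthesis genes and helpers, other degradation genes, heme sensors and regulators of Hmox1, and regulators of Alas1), and columns are 4 comparisons. Colour and number give the difference in log2(TPM + 1), first group minus second, and a star marks an adjusted p under 0.05. Regulators of Alas1 show their strong colours in FD with Mock, with Ppargc1a at 3.55 and Ppara at 3.44.

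Regulators of Alas1 were the list with most calls for its size in FD against Mock. The lists were chosen with earlier results of these data known, so this ranking of lists is not a test. Of the 11 tested regulators 7 rose, 3 fell and 1 was uncalled, where 11.2% of all genes were called higher and 29.9% lower. Their median log2 difference was 0.96 against -0.15 over all genes. Ppargc1a, the coactivator PGC-1α, went from 0.792 TPM in Mock to 20.2 in FD (log2 difference 3.55, adjusted p = 1.96e-09). The nuclear receptors Ppara (log2 difference 3.44, adjusted p = 1.18e-09) and Hnf4a (1.96, adjusted p = 1.02e-11) rose as well, as did Foxo1 (1.90, adjusted p = 7.73e-09). The mitochondrial regulators Nrf1 and Tfam and the corepressor Ncor1 fell by 0.47, 0.67 and 0.50 on the log2 scale. Foxo1 and the 3 that fell are named after their values were seen. In FDMn against FD 1 of 11 was higher, Egr1 (log2 difference 0.45, adjusted p = 0.0112), a call lost without FDMn replicate 1. Hnf4a was the 1 lower gene (-0.16, adjusted p = 0.0326), a call lost under 8 of 15 alternatives, among them quantile normalization, the replicate block and the omission of any FDMn replicate or of FD replicate 1. After median-of-ratios scaling 1 was higher and 2 were lower. The share called in FDMn against FD was near the 15.1% over all genes. In FDI against FD 0 were higher and 1 lower, Hnf4a again (-0.21, adjusted p = 0.00849), and 2 were lower after either scaling.

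Heme sensors and regulators of Hmox1 formed a list of 12. In FD against Mock 2 were higher and 2 lower, and after median-of-ratios scaling 7 were higher and 2 lower (4 and 2 after quantile normalization). Over all genes, the share of lower genes among calls also went from 72.7% to 49.9% and 55% under these scalings. Maff, a small MAF partner of BACH and NRF2 proteins, rose from 46.6 to 111 TPM in FD (adjusted p = 7.5e-08), and the heme-binding clock repressors Nr1d1 and Nr1d2 fell, by 1.63 and 1.02 on the log2 scale. Bach1, the repressor of Hmox1, was named for its role and not by rule. Bach1 passed no test in FD against Mock, FDMn against FD or FDI against FD. It averaged 7.46 TPM in Mock, 9.56 in FD, 8.26 in FDI and 10.6 in FDMn. For FDMn against Mock the levels of Bach1 are given and not its test. The FDMn libraries (9.46 to 11.2 TPM) lay above those of Mock (7.24 to 7.83). In that comparison 4 of the 12 listed genes were called higher, 5 lower and 3 were uncalled. The shares over all genes were 12% higher and 30.6% lower. In FDMn against FD 1 was higher and 3 lower, where 7.22% of all genes were called higher and 7.9% lower. Nfe2l2, which encodes NRF2, was at 109 TPM in FD, 90.8 in FDMn (adjusted p = 0.0092) and 94.9 in FDI (adjusted p = 0.0376), the last call being lost without any 1 of the FD or FDI libraries. Atf4, a stress-responsive activator, was the higher gene in FDMn, at 231 TPM against 176 in FD (adjusted p = 0.0019), and was higher still in FDI, at 327 TPM (adjusted p = 4.37e-06). Atf4 differed between FDMn and FDI (log2 difference -0.50, adjusted p = 0.000294).

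Of 22 tested targets of NRF2 other than Hmox1, 2 rose and 7 fell in FD against Mock, a share near the 41.1% called over all genes, and 4 rose and 5 fell after median-of-ratios scaling. In FDMn against FD 2 rose and 6 fell, where 7.22% of all genes were called higher and 7.9% lower. The split was the same under both scalings. The 2 that rose were Srxn1 and Txnrd1. Srxn1 averaged 161 TPM in Mock, 302 in FD, 371 in FDI and 525 in FDMn. Txnrd1 averaged 205, 149, 166 and 195 TPM in the same order. Gclc, the catalytic subunit of glutathione synthesis, went from 135 TPM in Mock to 1136 in FD, and stood at 761 in FDI and 663 in FDMn, so that in FDMn it was below FD (adjusted p = 1.51e-05) but far above Mock. Osgin1, an oxidative stress gene, fell from 1253 TPM in Mock to 369 in FD and was at 361 in FDMn and 637 in FDI. Gstm3, a glutathione transferase, was at 80.9 TPM in Mock, 84.3 in FD, 82.4 in FDI and 39.7 in FDMn (FDMn against FD, adjusted p = 1.4e-06).

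Of 6 other degradation genes, 1 was called in FD against Mock. Por, the reductase that gives electrons to heme oxygenase and to cytochromes P450, rose from 247 to 582 TPM (adjusted p = 2.6e-05). In FDMn against FD 1 was lower: Ugt1a1, which conjugates bilirubin, went from 117 to 78.5 TPM (adjusted p = 0.000305). After quantile normalization 1 was higher as well. The shares over all genes in FDMn against FD were 7.22% higher and 7.9% lower. FDI against FD had 0 called by limma, and 0 at an unadjusted p under 0.05. Blvra, the main biliverdin reductase, named for its role, passed no test and was between 8.99 and 16.7 TPM in all libraries, well below Blvrb.

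Of 14 genes of heme transport and binding, 0 rose and 4 fell in FD against Mock, near the 29.9% called lower over all genes. That split went to 2 higher and 2 lower after median-of-ratios scaling and to 0 and 2 after quantile normalization. The share of lower genes among all calls also went from 72.7% to 49.9% and 55%. With manganese added to the mixture, 0 rose and 4 fell against FD (0 and 5, and 0 and 3, under these scalings). The shares over all genes were 7.22% higher and 7.9% lower. Abcg2, an exporter of porphyrins, fell in both, from 150 ± 5.05 TPM in Mock to 93.0 ± 9.50 in FD (adjusted p = 9.28e-06) and to 63.9 ± 2.34 in FDMn (adjusted p = 0.000459). Slc48a1, a heme transporter of endolysosomes, fell from 180 to 141 TPM in FD (adjusted p = 0.000425). Lrp1, the receptor for hemopexin-bound heme, was at 28.8 TPM in FD and 19.99 in FDMn (adjusted p = 0.0126), a call lost without FDMn replicate 1. FDI against FD had 0 called by limma, and 3 at an unadjusted p under 0.05.

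Of 34 tested P450 genes, which use heme, 9 rose and 4 fell in FD against Mock. The share called in either direction was near the 41.1% over all genes, but the split differed. Of all genes, 11.2% were called higher and 29.9% lower. After median-of-ratios scaling 18 rose and 2 fell, and after quantile normalization 14 and 2. Cyp2b10 rose from 6.97 to 80.2 TPM (adjusted p = 1.93e-09) and Cyp2c70 from 25.4 to 121 (adjusted p = 8.49e-10). FDMn against FD had 3 higher and 3 lower. That share was near the 15.1% called over all genes, so it is not a result about these genes. Cyp3a13 went from 29.5 to 52.6 TPM (adjusted p = 9.73e-06), Cyp2a5 from 416 to 209 (adjusted p = 1.98e-05) and Cyp1a2 from 84.2 to 54.7 (adjusted p = 0.000117). Of 15 tested heme-using proteins outside that family, 4 rose and 2 fell in FD against Mock (6 and 1 after median-of-ratios scaling). Their share called in either direction was again near the 41.1% over all genes. Tdo2, a heme enzyme of tryptophan breakdown, rose from 19.8 to 100 TPM in FD (adjusted p = 3.46e-08) and was at 20.1 in FDI and 55.8 in FDMn, both lower than FD (adjusted p = 5.95e-07 and 0.000969). Cyb5a, cytochrome b5, rose from 503 to 882 TPM in FD and was at 594 in FDMn (adjusted p = 4.5e-05) and 695 in FDI (adjusted p = 0.00146).

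Iron genes are given for the metal that heme takes up and releases. Of 18 tested, 3 rose and 8 fell in FD against Mock, where 11.2% of all genes were called higher and 29.9% lower. In FDMn against FD 5 rose and 2 fell, against 7.22% and 7.9% of all genes. In FDI against FD 2 rose and 1 fell (1 and 1 after either scaling), near the 14.5% of all genes called there. After median-of-ratios scaling 3 rose and 5 fell in FD against Mock. In FDMn, Tfrc, the transferrin receptor, was at 40.1 TPM against 13.8 in FD (adjusted p = 1.51e-05), and Hamp, the hormone hepcidin, at 44.3 against 11.8 (adjusted p = 4.74e-06). Slc40a1, the iron exporter ferroportin, was at 41.9 TPM in Mock, 17.8 in FD, 12.3 in FDI and 9.31 in FDMn (FDMn against FD, adjusted p = 9.57e-05).

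The genes whose profiles were most like those of Hmox1 and Alas1 were found over the 12 libraries among 8413 candidates, by the root-mean-square difference of centred log2(TPM + 1) values. For Hmox1 they were Gadd45g (0.31), Bex3 (0.36), Chaf1b (0.39), Tedc2 (0.40) and Nr4a2 (0.40). Gadd45g, a growth arrest gene, was at 38.8 ± 0.503 TPM in Mock, 86.9 ± 10.9 in FD, 88.1 ± 7.52 in FDI and 46.1 ± 2.82 in FDMn. For Alas1 they were Gldc (0.12), Rnf144b (0.13), Hnf4a (0.13), Zfp36 (0.13) and Pdxk (0.13). Gldc, an enzyme of the glycine cleavage system, was at 17.1 ± 0.848, 67.7 ± 2.56, 64.3 ± 3.14 and 58.0 ± 1.19 TPM in Mock, FD, FDI and FDMn. Pdxk, the kinase that makes the vitamin B6 cofactor used by ALAS1, was at 6.91 ± 0.576, 23.1 ± 1.52, 25.4 ± 2.48 and 25.9 ± 1.06 TPM. The list gives likeness of level over these groups only.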

How the data were processed

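The deposited table gives TPM per gene symbol for 12 libraries of poly-A RNA. The submitters' processing notes name kallisto 0.44.0, the build GRCm38.p6 and DESeq2, without roles. How strand was used and how transcripts were added up per gene is not given in the sources used here. Each TPM column as deposited sums to 1000000, so a rise in abundant transcripts lowers all other values. The depth is unknown.

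Genes with at least 1 TPM in at least 3 of 12 libraries were kept (11544). With limma 3.58.1 (R 4.3.3), a model with 1 term per group and an intensity trend was fitted to log2(TPM + 1) over all 12 libraries. P-values are two-sided and Benjamini-Hochberg adjusted over all tested genes, with a threshold of 0.05. Folds and percentages are ratios of mean TPM, and log2 differences understate the change of low genes. The fit was tested on simulated data. Comparisons that share a group of libraries are not independent.

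The 9 genes and the lists were chosen with earlier results of these data known. From each list, up to 3 genes per comparison with the smallest adjusted p past the threshold were named, with the 5 nearest profiles of Hmox1 and Alas1 (mean TPM of at least 5, no predicted genes) and markers of other cell types. Genes named otherwise are said to be. Of 214 listed symbols, 211 were in the table. A few other genes are not reported here. Locations and overlaps are from whole gene spans, introns included, in GENCODE M21, and gene start sequences from RefSeq.

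Alternatives were pseudocounts of 0.1 and 0.5, no filter, a filter at 5 TPM, median-of-ratios scaling, quantile normalization, no trend, the 2 groups alone, a replicate block, and leaving out each library in turn.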

Additional observations from a re-analysis of the deposited data

How the results depend on the processing

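Of 54 results (9 genes in 6 comparisons), 42 kept their side of the threshold under all 15 alternatives run for each. Of 19 called results 9 were kept under every alternative and 10 were lost under at least 1, 2 of 35 uncalled results gained a call, and 0 changed direction while called. The number of the 9 genes called in FD with Mock was 5, and 3 under median-of-ratios scaling or quantile normalization. In FDMn with Mock it was 6, and 2 and 3 under these. In FDI with Mock it was 5, and 2 under median-of-ratios scaling. In FDMn with FD it was 2, and 1 with no filter, no trend or the 2 groups alone. Leaving out 1 library gave 3 to 5 in FD with Mock (3 without FD replicate 1 or Mock replicate 3), 3 to 5 in FDMn with Mock (3 without FDMn replicate 2 or Mock replicate 2), 2 to 5 in FDI with Mock (2 without FDI replicate 2 or Mock replicate 2, 3 without FDI replicate 3), 1 to 3 in FDMn with FD (1 without FD replicate 1 or any FDMn replicate), 1 in FDMn with FDI and 0 in FDI with FD.

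Over all genes, leaving out 1 library gave 1018 to 2025 calls in FDMn with FD (1746 with all, 1018 without FDMn replicate 1 and 1163 without FDMn replicate 2), 1092 to 2121 in FDI with FD (1674, and 1092 without FDI replicate 3), 1351 to 1456 in FDMn with FDI (2031, and 1351 without FDMn replicate 1), 4126 to 4477 in FD with Mock (4743), 4153 to 4437 in FDMn with Mock (4925) and 3649 to 3880 in FDI with Mock (4416). The fit of the 2 groups alone gave 985 in FDI with FD. The cause of these shifts was not tested.

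Replicate numbers did not pair the libraries: over 18 pairs with the same number, the correlation of deviations from group means ranged from -0.0976 to 0.0684, 0 were above 0.1, and 5 of 12 libraries correlated best with their own number. With the replicate block, 1 of the 9 genes was called in FDMn with FD, and 4, 6, 4, 1 and 0 in FD with Mock, FDMn with Mock, FDI with Mock, FDMn with FDI and FDI with FD. The block lost Alad in FD with Mock (adjusted p = 0.0631), Uros in FDMn with FD (0.0606) and Blvrb in FDI with Mock (0.0758).

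List counts that moved by over 1.5 times are given as the range over alternatives. In FD with Mock these were P450 genes (13 called, 10 to 20), heme sensors (4, 3 to 9), transport (4, 2 to 4) and helpers (4, 2 to 4). In FDMn with FD they were transport (4, 1 to 5), other degradation genes (1, 1 to 2), heme-using proteins (5, 3 to 6), iron genes (7, 4 to 8) and regulators of Alas1 (2, 0 to 3). In FDI with FD they were helpers (5, 1 to 5), other degradation genes (0, 0 to 1), transport (0, 0 to 3), NRF2 targets (5, 3 to 7), P450 genes (3, 1 to 5), heme-using proteins (6, 3 to 6) and regulators of Alas1 (1, 0 to 2).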
